A study of Mus musculus with 7 samples.

Results

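The genes described here make and load the peptides that MHC class I molecules show on the cell surface: Psmb8, Psmb9 and Psmb10, Psme1 and Psme2, Tap1 and Tap2, Tapbp, Nlrc5 and B2m. They were chosen on earlier results from the same 7 arrays, in which several of them were lower after penicillin, so the difference between the groups had a part in the choice and is given below as a description. Every probe set whose platform annotation lists 1 of these genes and no other was taken. That gave 15 probe sets for 9 genes, of 34945 such probe sets for 18193 genes in the whole table. The only probe set that lists Psme2 also lists Psme2b, so Psme2 is not analysed here. Of the 15 probe sets, 12 lay above the filter on low values (a mean over the 7 arrays of log2 4.24), and each of the 9 genes had at least 1 of them.

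The 4 penicillin mice were male C57BL6J animals that had received penicillin since birth at a low dose, 6.7 mg/L, and the 3 control mice of the same strain and sex were given no antibiotic. All 7 were weaned onto chow at 4 weeks, moved at 6 weeks to a diet in which fat supplied 45% of the energy, and sampled at 8 weeks. RNA of the terminal ileum, 1 array a mouse, was hybridised to Affymetrix arrays, on which a probe set is a group of short probes for a transcript. Litter and cage were not among the labels, so neither can be told apart from penicillin.

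The labels' growth text names livers and their tissue field names terminal ileum. The epithelial markers averaged log2 13.63 to 13.67 in penicillin mice and 13.48 to 13.63 in control mice. The ileal enterocyte markers averaged 10.96 to 11.58 in penicillin mice and 10.56 to 11.55 in control mice. The 3 genes behind that mean differed. Slc10a2 was higher in every penicillin mouse than in any control mouse, by 0.82, with control replicate 3 the lowest at 9.91. Fgf15 was at -1.14 and Fabp6 at 0.095, penicillin minus control, both with overlapping groups. Control replicate 3 stood apart in its colon markers, whose mean was log2 7.34, against 3.97 to 5.46 in penicillin mice and 4.49 and 4.65 in the other control mice. Car1, at 14.10, and Aqp8, at 8.27, carried that mean, while the other 2 of the 4 colon markers, Hoxb13 and Hoxd10, lay under the filter. Penicillin replicate 1 was also high for Car1, at 10.82, with the other penicillin mice between 5.11 and 7.63. Control replicates 1 and 2 were at 7.38 and 7.30. For Aqp8 penicillin replicate 1 was at 4.23, with the other penicillin mice between 3.94 and 4.08. The part of these markers in the results was not tested.

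Cells cut their own proteins in the proteasome. Its standard form has the catalytic subunits Psmb5, Psmb6 and Psmb7. In the immunoproteasome these are replaced by Psmb8, Psmb9 and Psmb10, which lymphoid cells carry at rest and which interferon gamma induces in other cells, epithelium included. The PA28 cap, made of Psme1 and Psme2, opens the proteasome, Tap1 and Tap2 pump the peptides into the endoplasmic reticulum, and tapasin (Tapbp) holds an empty class I molecule next to that pump. B2m is the light chain of class I molecules, and Nlrc5 is the transactivator of class I genes and of several genes that serve them. In whole ileum, fewer cells of a type and less RNA per cell cannot be told apart.

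Psmb9, Tap1, Psmb8 and Tap2 are direct neighbours, in that order, among the protein-coding genes of chromosome 17 in the RefSeq table (GRCm38.p6), between the class II genes H2-DMb1 and H2-Ob. Tapbp is on the same chromosome, Psmb10 and Nlrc5 are on chromosome 8, Psme1 is on chromosome 14 and B2m is on chromosome 2. Psmb9 and Tap1 are transcribed away from each other, and their promoter windows, 250 bases before to 50 after the start, share 275 bases. The windows shown are that shared promoter and the one of Psmb8, whose genes had 3 of the 4 largest differences, and that of B2m, whose levels were nearly alike in both groups. They are from RefSeq (GRCm38.p6), read 5′ to 3′ on the strand named. Capitals mark matches, on either strand, to 3 motifs: GAAA and GAAA parted by any 2 bases, the core of the interferon-stimulated response element; TTCNNNGAA, the gamma-activated site; and CCAAT, which reads ATTGG on the other strand and is part of the Y box of MHC promoters.
Tap1 (shared with Psmb9), chr17:34187306-34187605, plus strand: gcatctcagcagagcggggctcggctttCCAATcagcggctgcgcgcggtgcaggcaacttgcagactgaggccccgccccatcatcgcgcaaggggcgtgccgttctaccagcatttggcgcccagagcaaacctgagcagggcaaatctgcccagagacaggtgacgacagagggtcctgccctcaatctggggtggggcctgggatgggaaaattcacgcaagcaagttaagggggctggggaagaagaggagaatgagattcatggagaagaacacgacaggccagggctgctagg
Psmb8, chr17:34197945-34198244, plus strand: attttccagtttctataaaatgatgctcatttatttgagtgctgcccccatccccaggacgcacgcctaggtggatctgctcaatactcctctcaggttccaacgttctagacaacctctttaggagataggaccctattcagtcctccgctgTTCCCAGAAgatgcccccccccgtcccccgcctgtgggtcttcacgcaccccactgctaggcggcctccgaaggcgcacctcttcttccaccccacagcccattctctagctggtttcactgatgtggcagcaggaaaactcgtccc
B2m, chr2:122147437-122147736, plus strand: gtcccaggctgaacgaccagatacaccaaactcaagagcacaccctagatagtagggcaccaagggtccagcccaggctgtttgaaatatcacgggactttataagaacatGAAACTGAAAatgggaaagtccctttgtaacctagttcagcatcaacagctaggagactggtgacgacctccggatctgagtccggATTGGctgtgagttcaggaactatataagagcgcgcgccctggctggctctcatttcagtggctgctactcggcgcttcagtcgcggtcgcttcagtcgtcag

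The table had windows for 8 of the 10 genes, without Tap2 and Nlrc5. The response element core was in the windows of 2 of the 8 genes, B2m and Psme1, and in 3.44% of all 32851 windows. The gamma-activated site was in 1, Psmb8, where it begins 97 bases before the transcription start, and in 8.30% of all windows. The CCAAT letters were in 4, B2m, Tapbp, Psmb9 and Tap1, and in 37.4% of all windows. The matches of Psmb9 and Tap1 are the same bases, seen from both windows. No match says only that these letters are not in the window.

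The comparison of penicillin with control mice asks how transcription in the ileum differs after low-dose penicillin from birth. The catalytic immunoproteasome subunits Psmb8 and Psmb9, the regulator Nlrc5 and the transporter subunit Tap1 were each at least 2-fold lower in penicillin mice, each by its brightest probe set. Psmb10, Tap2 and Psme1 were lower by less, at 1.44-fold, 1.51-fold and 1.24-fold, and the groups of Tap2 just overlapped. Tapbp was 1.17-fold and B2m 1.03-fold lower, both with overlapping groups.

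All 12 probe sets above the filter had a lower mean in penicillin mice, with a median difference of -0.54 on the log2 scale, beside -0.0044 over all 26208 probe sets tested. In limma 0 of the 12 were called at an adjusted p under 0.05, where 0.0687% of all probe sets were called, 0.0649% lower and 0.00382% higher in penicillin mice. At an unadjusted p under 0.05, 8 of the 12 were lower, beside 5.46% of all probe sets. In 7 of the 12, from 6 genes, every penicillin mouse lay below every control mouse, as in 4.89% of all probe sets. The genes were chosen with this contrast known, so nothing is read from these counts.

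**Figure D1:**
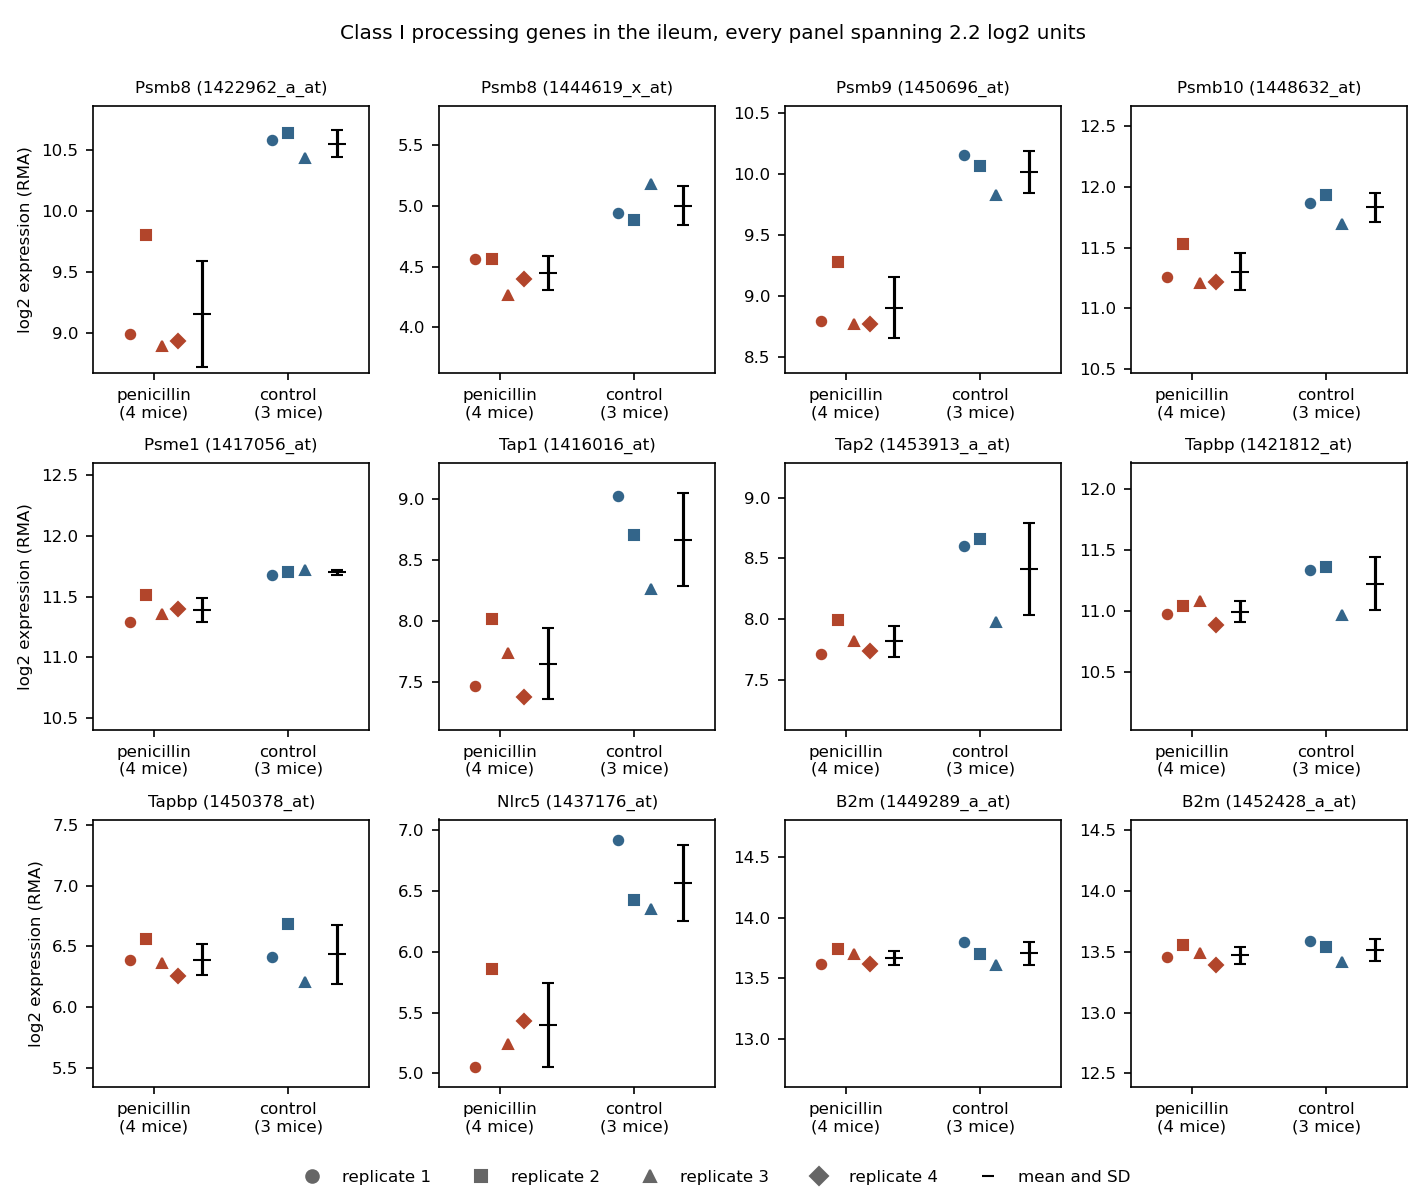
Log2 expression (vertical axis) of the 12 probe sets above the filter, 1 point a mouse, with 4 penicillin mice left of 3 control mice and the mean ± SD beside them. Psmb8, Psmb9, Tap1 and Nlrc5 show a gap between the groups, while the groups of Tap2, Tapbp and B2m overlap.

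Psmb8, the subunit that takes the place of Psmb5, had log2 levels of 8.99, 9.80, 8.89 and 8.93 in penicillin mice, against 10.59, 10.64 and 10.43 in control mice. The groups were separated by 0.63, and penicillin replicate 2 stood well above the other penicillin mice. The means were 9.15 ± 0.435 in penicillin mice (SD, n = 4) and 10.55 ± 0.109 in control mice (SD, n = 3), a difference of -1.40 ± 0.21 (SE, 2.64-fold). A second, dimmer Psmb8 probe set lay just above the filter, at 4.56, 4.56, 4.27 and 4.40 in penicillin mice, against 4.94, 4.88 and 5.18 in control mice. It also separated the groups, but here penicillin replicate 2 did not stand out and control replicate 3 was the highest mouse. Its difference was -0.55 ± 0.10 (SE).

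Psmb9, which takes the place of Psmb6, had log2 levels of 8.79, 9.28, 8.77 and 8.77 in penicillin mice, against 10.16, 10.07 and 9.83 in control mice. The other penicillin mice lay close together and replicate 2 above them, still below every control mouse. The difference was -1.11 ± 0.14 (SE, 2.17-fold), with the smallest adjusted p of the 12 probe sets, 0.0650 in limma.

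Psmb10, which takes the place of Psmb7, had log2 levels of 11.26, 11.53, 11.21 and 11.21 in penicillin mice, against 11.87, 11.93 and 11.69 in control mice. Penicillin replicate 2 was again the highest of its group and control replicate 3 the lowest of its own, with a gap of 0.17 between the groups. The difference was -0.53 ± 0.097 (SE), and -0.60 without control replicate 3.

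The standard subunits that these replace were nearer to level. Psmb5 averaged log2 11.01 ± 0.0609 in penicillin mice (SD, n = 4) and 11.13 ± 0.126 in control mice (SD, n = 3), a difference of -0.11 ± 0.073 (SE, adjusted p = 0.594 in limma). Psmb6 was at -0.10 ± 0.064 (SE) and Psmb7 at -0.053 ± 0.060 (SE). In all 3 genes the groups overlapped and control replicate 3 was the highest mouse, whereas it was the lowest control mouse for Psmb8 (by its brighter probe set), Psmb9 and Psmb10. Whether the immune and the standard subunits differ in their response was not tested, since the immune ones were chosen on that response.

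Psme1, the alpha chain of the PA28 cap, had log2 levels of 11.29, 11.52, 11.36 and 11.40 in penicillin mice, against 11.68, 11.70 and 11.72 in control mice. The control mice were nearly equal and all penicillin mice lay below them, by at least 0.16. The difference was -0.31 ± 0.065 (SE).

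Tap1, one chain of the peptide pump, had log2 levels of 7.47, 8.02, 7.73 and 7.38 in penicillin mice, against 9.03, 8.71 and 8.27 in control mice. The groups did not overlap, with penicillin replicate 2 and control replicate 3 closest to each other. The difference was -1.02 ± 0.21 (SE, 2.03-fold). The other 3 probe sets of Tap1 lay under the filter, at means of log2 3.00, 3.15 and 4.04 over the 7 arrays, and had overlapping groups with differences of 0.019, -0.018 and -0.14. Averaged with these, Tap1 had a difference of -0.29.

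Tap2, the other chain of the pump, had log2 levels of 7.72, 7.99, 7.82 and 7.74 in penicillin mice, against 8.60, 8.66 and 7.97 in control mice. Control replicate 3 lay among the penicillin mice, just under penicillin replicate 2, and the other control mice lay well above. The difference was -0.60 ± 0.16 (SE), and without control replicate 3 it was -0.81.

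Tapbp, by its brighter probe set, had log2 levels of 10.97, 11.04, 11.08 and 10.88 in penicillin mice, against 11.34, 11.36 and 10.97 in control mice. Control replicate 3 again lay among the penicillin mice. The difference was -0.23 ± 0.10 (SE), and -0.36 without control replicate 3. The dimmer Tapbp probe set had overlapping groups and a difference of -0.044 ± 0.12 (SE), which was -0.16 without control replicate 3.

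Nlrc5 had log2 levels of 5.05, 5.86, 5.24 and 5.43 in penicillin mice, against 6.92, 6.42 and 6.35 in control mice. Every penicillin mouse lay below every control mouse, and penicillin replicate 2 was the highest of its group. The difference was -1.17 ± 0.21 (SE, 2.25-fold).

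B2m, by its brighter probe set, had log2 levels of 13.62, 13.74, 13.70 and 13.61 in penicillin mice, against 13.80, 13.70 and 13.61 in control mice. The groups overlapped over most of their range, and the difference was -0.038 ± 0.065 (SE). The other B2m probe set was at -0.042 ± 0.066 (SE). Without control replicate 3, the lowest control mouse in both, they were at -0.085 and -0.091.

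The same mice were high or low across most of these genes. Penicillin replicate 2 had the highest value of its group in 10 of the 12 probe sets and the lowest in 0, while it was the highest in 20.5% of all probe sets tested. Control replicate 3 was the lowest control mouse in 10 of the 12, and in 33.7% of all probe sets. With each gene centred on its own mean over the 7 arrays and the 9 genes averaged, the penicillin mice stood at -0.43, -0.027, -0.36 and -0.41, against 0.55, 0.46 and 0.20 in the control mice.

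Without penicillin replicate 2, Psmb8 and Psmb9 passed the threshold, at -1.62 and -1.24 (adjusted p = 0.00210 and 0.00956 in limma). Over all 26208 probe sets 24 were called without this mouse. Nlrc5 was at -1.32, Tap1 at -1.14 and Psmb10 at -0.60 in that fit, none of them called. Without control replicate 3, 0 of the 12 were called, beside 13 of all 26208 probe sets. Psmb8 was then at -1.46, Psmb9 at -1.21, Nlrc5 at -1.28 and Tap1 at -1.22. Without both mice, a choice made after their values had been seen, Psmb8, Psmb9, Psmb10 and Tap2 were called, at -1.68, -1.34, -0.67 and -0.87. Over all 26208 probe sets 28 were called in that fit. The genes were chosen with this contrast known, so nothing is read from these calls. Over all alternatives the adjusted p in limma lay between 0.00210 and 0.422 for this Psmb8 probe set and between 0.00709 and 0.392 for Psmb9. It lay between 0.0445 and 0.618 for Psmb10 and between 0.0284 and 0.798 for Tap2. With any mouse but penicillin replicate 2 or control replicate 3 left out singly, neither Psmb8 nor Psmb9 was called. The adjusted p in limma then lay between 0.217 and 0.324 for this Psmb8 probe set, against 0.105 with all 7 mice. For Psmb9 it lay between 0.200 and 0.224, against 0.0650.

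Other genes of the pathway were read from 8 lists with 128 probe sets above the filter, for 64 genes. In limma 0 were called lower and 0 higher, while 13 were lower and 0 higher at an unadjusted p under 0.05, beside 5.46% lower and 4.72% higher of all probe sets. With 1 probe set a gene, the 11 other subunits of the 20S core, the barrel of the proteasome, all had lower means, with a median difference of -0.10. Psmb3 was lowest among them, at -0.18 ± 0.056 (SE). Control replicate 3 was the highest mouse for each of these 11 genes, and the groups overlapped in all but 4 of them. Of 17 subunits of the 19S regulator, which unfolds proteins for the core, 15 had lower means, with a median of -0.062. The 5 assembly factors had a median of -0.056, with Psmg3 lowest at -0.23 ± 0.092 (SE). Of the other caps, Psme3, the nuclear relative of Psme1, was at -0.056, Psme4 at -0.029 and Psmf1, an inhibitor of the proteasome, at 0.055.

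**Figure D2:**
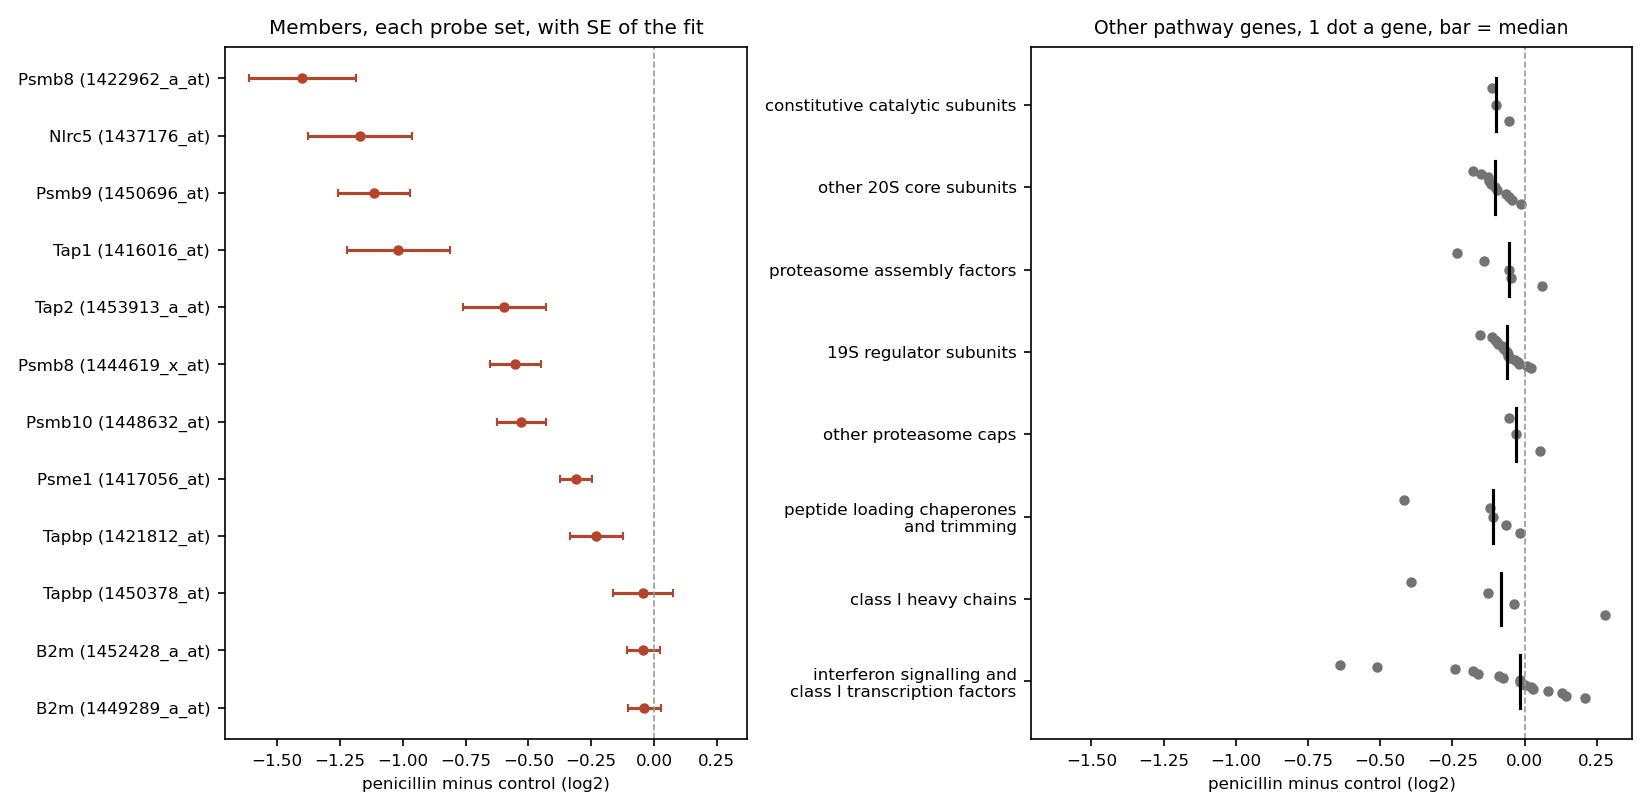
Difference in log2 expression, penicillin minus control, for the 12 member probe sets with the SE of the limma fit, and for the other genes of the pathway, 1 dot a gene with the list's median as a bar. The 4 lowest member probe sets, at -1.40, -1.17, -1.11 and -1.02, lie below every gene of the lists, where Irf8 is lowest at -0.64. The members were chosen with this contrast known, so nothing is read from this order.

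Among the genes that help class I molecules take up peptide, Tapbpl, the tapasin-related editor, had log2 levels of 8.87, 9.09, 8.95 and 8.77 in penicillin mice, against 9.54, 9.40 and 9.08 in control mice. The groups just overlapped, at penicillin replicate 2 and control replicate 3, and the difference was -0.42 ± 0.12 (SE). The chaperone Calr was at -0.11 and Erap1, which trims peptides, at -0.12. Of 4 class I heavy chains, H2-M3, a nonclassical chain that binds formylated peptides, was at -0.39 ± 0.080 (SE, adjusted p = 0.187 in limma), with no overlap between the groups. The classical chains H2-K1 and H2-D1 were at -0.035 and -0.13 by their brightest probe sets. H2-Q10 was at 0.28 ± 0.28 (SE), with overlapping groups. The 7 H2-D1 probe sets above the filter disagreed, with differences between -0.40 and 0.16. In the probe set at -0.40 every penicillin mouse lay below every control mouse, and in the others the groups overlapped. Probe sets of such similar genes can share signal.

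Of 16 genes of interferon signalling and class I transcription, 9 had lower means and 7 higher, with a median of -0.016. Irf8 and Irf1, transcription factors of the interferon response, had differences of -0.64 ± 0.098 and -0.51 ± 0.11 (SE). Irf1 had log2 levels of 10.29, 10.71, 10.47 and 10.32 in penicillin mice, against 10.99, 11.03 and 10.85 in control mice. Penicillin replicate 2 was the highest of its group and control replicate 3 the lowest of its own, as for most of the genes above. Rfx5, a subunit of the factor that binds the X box of MHC promoters, was at -0.16. The receptor chain Ifngr1 was at 0.14 (adjusted p = 0.507 in limma), with every penicillin mouse above every control mouse. The Ifng probe set was under the filter, at log2 3.38 in penicillin mice and 3.42 in control mice.

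Across 14590 genes, 1 probe set each, the 8 other genes closest to the mean profile of the 9 genes over the 7 mice were found by the root mean square difference between centred profiles. They were Ciita, the class II transactivator, at 0.070, Ctsw, a protease of cytotoxic lymphocytes, at 0.088, Cd7, a T and natural killer cell surface protein, at 0.091, and Irf8 at 0.10. Then came Cd274, the ligand of the PD-1 receptor, at 0.10, Gpr18 at 0.11, Irf1 at 0.12 and Gimap7, a GTPase of lymphocytes, at 0.12. Of the 9 genes themselves Psmb10 was closest to their mean, at 0.11, and Psmb8 farthest, at 0.38. The 8 were picked for likeness over only 7 mice, so their group differences, between -0.87 in Gimap7 and -0.51 in Irf1, follow from that choice.

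**Figure D3:**
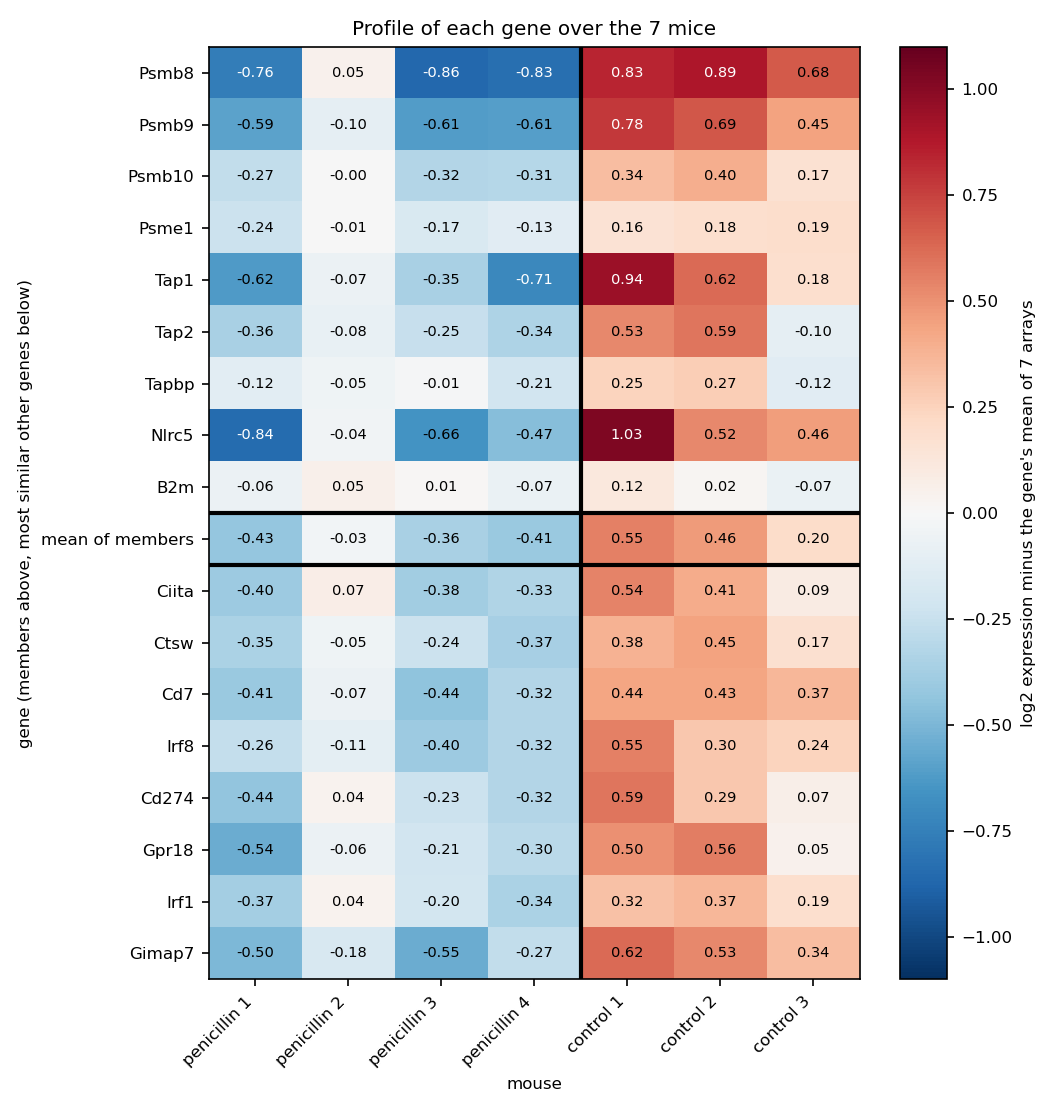
Log2 expression minus the gene's own mean over the 7 arrays, as colour and number, with penicillin mice left of control mice, for the 9 genes, their mean and the 8 genes with the most similar profile. In the row of the mean, penicillin replicate 2 is nearest to 0 of all mice, at -0.027.

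Markers of leukocytes were lower together with these genes, and their part in the differences was not tested. In 5 of 9 marker lists every penicillin mouse had a lower mean than every control mouse. The pan-leukocyte list lay between log2 7.86 and 8.28 in penicillin mice and between 8.49 and 8.70 in control mice, with 3 of 3 genes lower. The list of T cells and intraepithelial lymphocytes lay between 5.77 and 6.16 in penicillin mice and between 6.59 and 6.90 in control mice, with 10 of 10 genes lower and Cd2 under the filter. Of these, Itgae, an integrin chain of intraepithelial lymphocytes, was called; its log2 levels were 6.88, 6.95, 7.02 and 6.94 in penicillin mice, against 7.67, 7.62 and 7.49 in control mice. It fell by 0.65 ± 0.065 (SE, adjusted p = 0.0233 in limma), with no overlap between the groups. The genes of this list differed unevenly. Gzma, Gzmb and Cd3g had the largest differences, at -2.29, -1.65 and -1.29, followed by Nkg7, and Cd3d was at -0.59, all without overlap. Cd3e, Cd8a, Cd8b1 and Cd2 were at -0.21, -0.13, -0.27 and -0.048, all with overlapping groups. Penicillin replicate 2 had the highest mean of its group in both lists, as it had for most of the genes above.

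The plasma cell list lay between 7.63 and 8.08 in penicillin mice and between 8.50 and 8.72 in control mice, with 4 of 4 genes lower. Jchain, Mzb1 and Tnfrsf17 separated the groups, and Derl3, at -0.16, did not. The B cell list lay between 4.66 and 4.96 in penicillin mice and between 5.13 and 5.22 in control mice, with 4 of 4 lower. Only Cd79b, at -0.74, separated the groups, while Cd79a, Ms4a1 and Cd22, at -0.22, -0.40 and -0.060, did not. Cd79a and Ms4a1, at means of log2 4.38 and 4.27 over the arrays, lay just above the filter. The macrophage and dendritic cell list lay between 7.20 and 7.63 in penicillin mice and between 7.67 and 7.91 in control mice, with 7 of 8 lower. Csf1r, Itgam, Itgax and C1qa separated the groups. Adgre1, C1qb, C1qc and Cd68 did not, and Cd68 was higher in penicillin mice, by 0.048. Control replicate 3, low for Tap1, Tap2 and Tapbp, had the highest mean of all mice in the pan-leukocyte and macrophage lists, and the lowest of the control mice in the T cell list. The epithelial list had 0 of 8 genes lower and a mean difference of 0.085, and the stroma and muscle list overlapped, at 10.31 to 10.71 in penicillin mice and 10.51 to 10.63 in control mice.

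**Figure D4:**
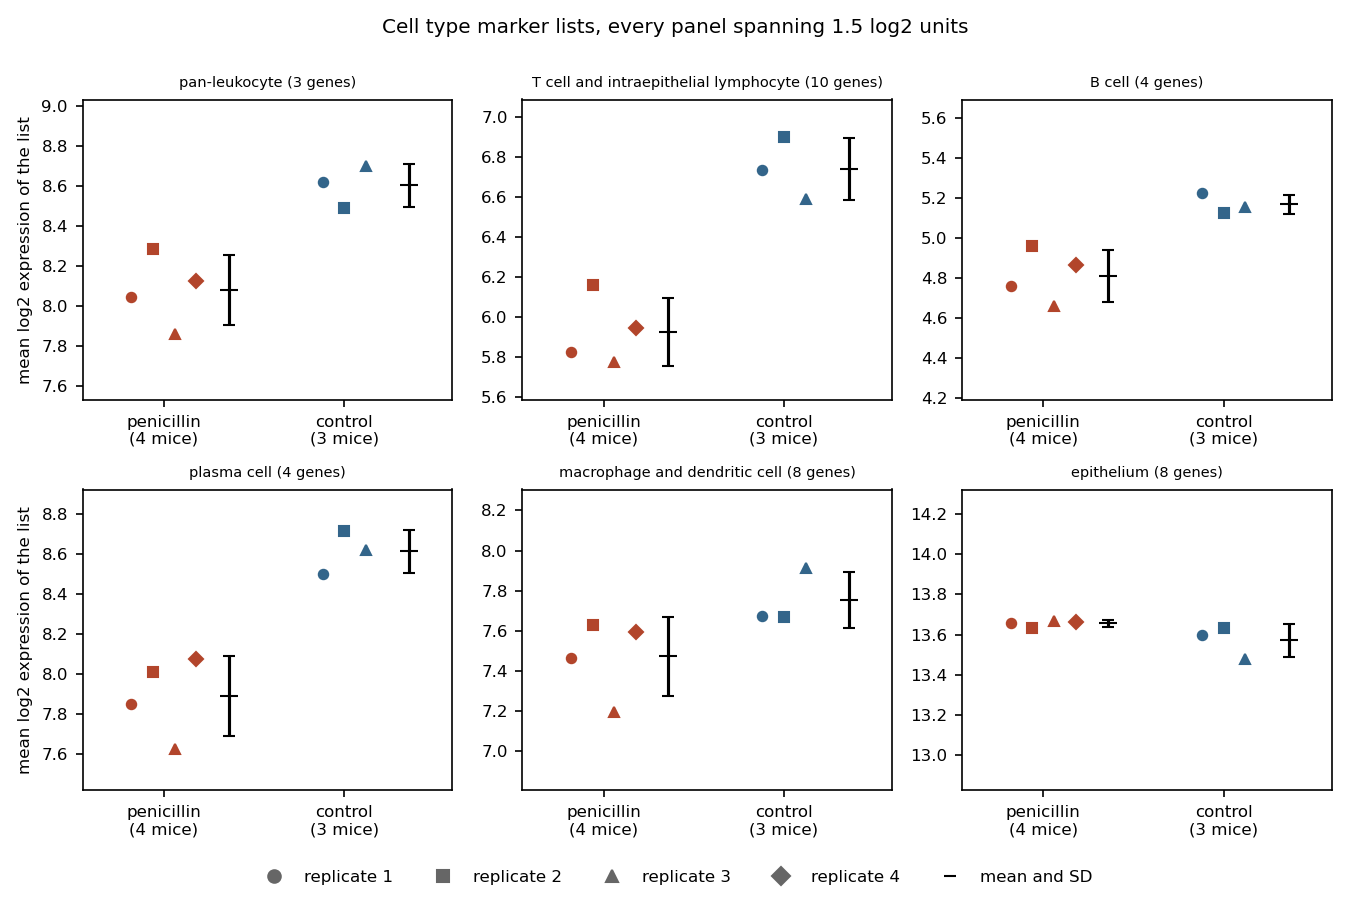
Mean log2 expression (vertical axis) of marker lists, 1 point a mouse, with penicillin mice left of control mice and the mean ± SD beside them. In the 5 immune lists every penicillin point lies below every control point, while the epithelial means differ by 0.085.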

How the data were processed

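Expression was measured on 7 arrays, 1 for each of 4 penicillin and 3 control mice, which the labels call biological replicates. The authors deposited 1 log2 value for each probe set and array. The submitters' processing notes name RMA and affy, and their versions were not given in the sources used here. Values lay between 2.50 and 14.7, array medians between 5.43 and 5.45, and correlations between arrays between 0.992 and 0.998. The number of arrays limits the precision.

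Of 45101 probe sets, 64 manufacturer's controls, 932 with several genes in the 2016 platform annotation and 9160 with none were left out. The 26208 with a mean above the 25th percentile entered a limma fit (limma 3.58.1, R 4.3.3, lmFit, eBayes, two-sided) of penicillin minus control, with Benjamini-Hochberg adjustment over all of them and a threshold of 0.05. The fit was tested on simulated data with independent noise in each probe set and array. That test does not cover mice that deviate in many genes together. Members and lists were chosen with earlier results of these data known.

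By rule the text names every member, Psmb5, Psmb6, Psmb7, Irf1, Calr, Erap1, Psme3, any called gene and up to 3 genes of each pathway list by moderated t, each by its probe set with the highest mean, and the 8 most similar profiles. H2-K1, Ifngr1 and Ifng, and the remarks on H2-D1 probe sets and on markers, were added after their values were seen. Alternatives covered the filter, probe set summary, normalisation, prior, array weights, replicate number as a block, threshold and each mouse left out. Same-numbered mice did not deviate together (correlations of -0.11, 0.0050 and -0.38), so the numbers were not taken as pairs. Figures were drawn with matplotlib 3.10.9.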

Additional observations from a re-analysis of the deposited data

Results flagged for a closer look

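In 6 of the 15 probe sets 1 penicillin mouse stood apart from the other penicillin mice, its gap to the nearest being more than 0.829 of the whole range of the 4. The rule's nominal rate is about 1 in 20 groups. Above the filter, 3 of the 12 member probe sets met it, beside 14.0% of all tested probe sets. In those 3 the mouse was penicillin replicate 2, the highest of its group. Its values were log2 9.80 for Psmb8 (next 8.99), 9.28 for Psmb9 (next 8.79) and 11.53 for Psmb10 (next 11.26). In each it stayed below the lowest control mouse. The other 3 were Tap1 probe sets under the filter, with equal values in some of the mice, so that the gap fills nearly the whole range and the nominal rate does not apply to them: 1 at 2.92 in penicillin replicate 3 (next 3.03), another at 3.88 in penicillin replicate 4 (next 4.01) and the third at 3.09 in penicillin replicate 4 (next 3.16).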

How the results depend on the processing

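Of 208 differences of single member probe sets under 18 alternatives, 60 equalled the reported value, since a filter, prior, threshold or choice of probe set leaves a difference as it is. Of the 148 that moved, 144 kept their direction. The 4 that turned were small: the brighter B2m probe set was at 0.00896 without control replicate 1, and the dimmer Tapbp probe set at 0.000586 both with the replicate block and without penicillin replicate 4, and at 0.0811 without control replicate 2. Without penicillin replicate 2 and control replicate 3 together they were at -0.11 and -0.21. The number of member probe sets called lower, 0 as reported, was 1 (Psmb9) with array quality weights and at an adjusted p under 0.1, between 0 and 2 with single mice left out (2, Psmb8 and Psmb9, when it was penicillin replicate 2), and 4 with that mouse and control replicate 3 both dropped, an alternative chosen after seeing the data. The number called higher was 0 in each of these fits. The median difference of the members lay between -0.60 and -0.47 with single mice left out, and was -0.31 with no filter, where 3 Tap1 probe sets enter. The count over all probe sets, 18, was 7 with the probe sets of a gene averaged, 52 with array quality weights, 33 at an adjusted p under 0.1 and 28 without both mice. It lay between 1 and 24 with single mice left out: 1 when penicillin replicate 1 or 4 or control replicate 1 or 2 was dropped, and 5 when penicillin replicate 3 was. With the replicate block, on 6 arrays, it was 0 in limma, with 1530 at an unadjusted p under 0.05. The cause of these shifts was not tested.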
